A study of Homo sapiens with 6 samples.

Results

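The 10 genes described here are the cyclin-dependent kinases (CDKs) CDK1, CDK2, CDK4 and CDK6, the CIP/KIP inhibitors CDKN1A, CDKN1B and CDKN1C, and the INK4 inhibitors CDKN2A, CDKN2B and CDKN2C. They were taken by gene symbol from deposited tables of 30618 genes with counts and 30275 genes with FPKM. FPKM are fragments scaled to the length of the gene and to the size of the library. All 10 had a row with counts and with FPKM. The cells were ARPE-19, a line established from human retinal pigment epithelium, and the libraries of both groups came from cells in 50 mM glucose, the study's model of diabetic retinopathy. The NC group (3 libraries) carries the genotype label of a negative control and received a non-targeting siRNA, and the siEIF1 group (3 libraries) is labelled as an EIF1 knockdown and received 1 siRNA sequence against EIF1, a factor that helps the ribosome select the start codon. All groups come from a single cell line, and the comparison holds no library from cells in normal glucose. The question addressed was how the level of each CDK and each inhibitor differed when EIF1 was depleted in high glucose.

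A CDK is active only with a cyclin bound to it. CDK4 and CDK6 pair with D-type cyclins and start the phosphorylation of the retinoblastoma protein in G1, CDK2 pairs with cyclins E and A at the entry into and during S phase, and CDK1 pairs with cyclins A and B and drives mitosis. The INK4 proteins bind CDK4 and CDK6 and keep D-type cyclins away, while the CIP/KIP proteins bind cyclin-CDK complexes and mainly block CDK2. Much of this control works through phosphorylation and protein degradation, which RNA levels do not measure.

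The libraries held from 26499929 to 31431479 counts. EIF1 itself had FPKM of 294.35, 281.08 and 281.28 in the NC libraries and of 24.28, 22.68 and 23.50 in the siEIF1 libraries, so the labels and the targeted transcript went together. The 6 libraries were made in parallel, according to the methods, from 3 independent biological replicates per group. Of the 8 markers fixed for retinal pigment epithelium, BEST1 (12180 to 20700 counts in a library), MITF and OTX2 were abundant, PMEL, LRAT and RLBP1 had 11 to 49 counts, TYR had 0 to 2 and RPE65 was not analysed here. RLBP1, at these low counts, was higher in siEIF1 cells (log2 fold change 1.55, edgeR adjusted p = 0.00102). No other tested marker of this list had an adjusted p under 0.05, and BEST1 stood at -0.32 (edgeR adjusted p = 0.106). The epithelial keratins KRT8 and KRT18 were higher in siEIF1 cells (log2 fold changes 0.24 and 0.25, edgeR adjusted p = 0.0095 and 0.00442). The summed CPM (counts scaled to the size of the library) of the analysed retinal pigment epithelium markers ran from 760 to 880 in NC and from 535 to 800 in siEIF1 libraries. For fibroblast markers the sum, nearly all of it COL1A1, ran from 4.08 to 6.15 in NC and from 5.73 to 6.6 in siEIF1 libraries. In any library it was at most 0.268 for endothelial cells and at most 2.57 for leukocytes, where CD68 was the only marker analysed. The part of such shifts in the results was not tested.

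Of the 10 genes, 4 changed at an adjusted p under 0.05, with CDK1, CDK2 and CDK4 lower and CDKN2B higher in siEIF1 cells (edgeR's quasi-likelihood test, Benjamini-Hochberg adjusted over the 16749 tested genes). The same test called 20.6% of all tested genes, 10.2% higher and 10.4% lower. Adding the study's limit of a fold change above 2 or below 0.5 left 1 of the 10, CDK1, against 1.71% of all tested genes, 0.4% higher and 1.31% lower. The CPM of the groups did not overlap for 5 of the 10 genes, namely those 4 and CDKN1A, and for 37.1% of all tested genes, 18.2% higher and 18.9% lower. The median log2 fold change of the 10 genes was -0.051, beside 0.0033 over all tested genes. With 10 genes these shares are a description of the family and not a test of it.

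**Figure D1:**
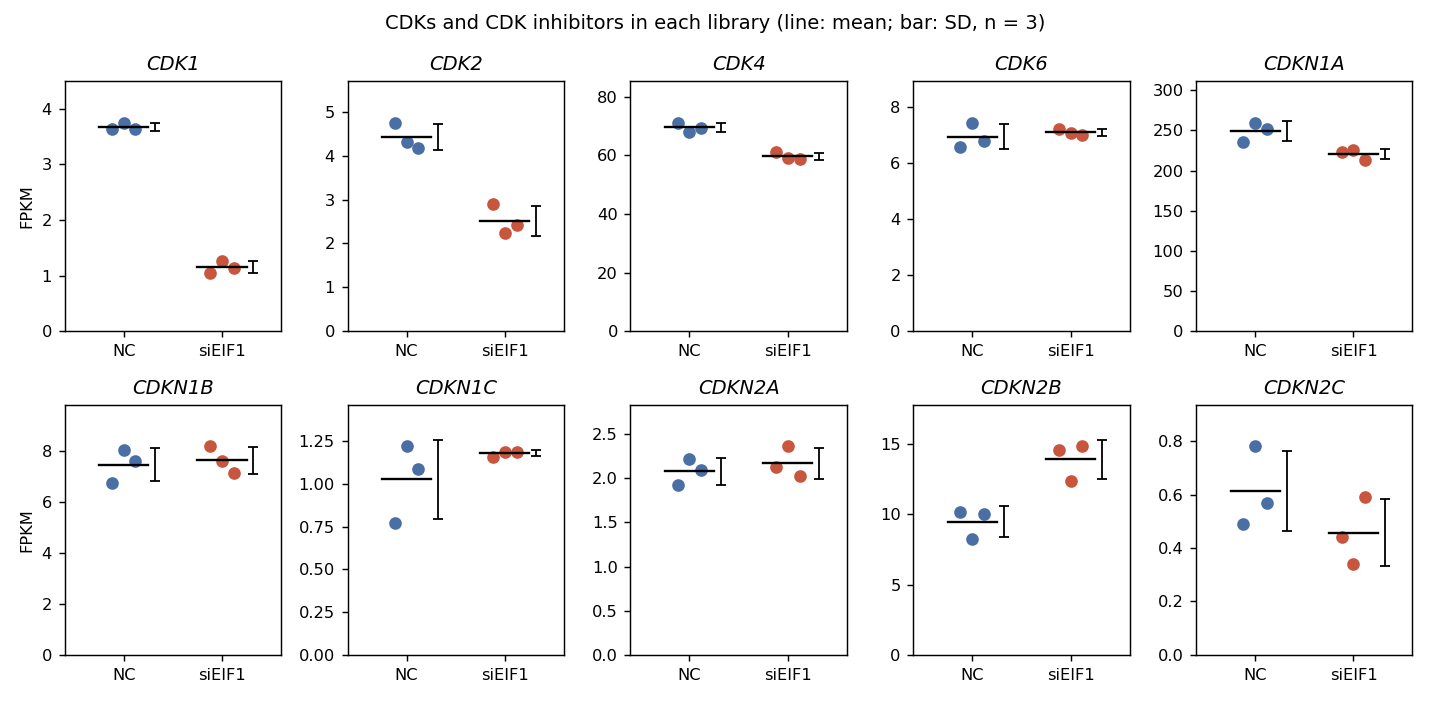
FPKM of each of the 10 genes (vertical axes, each from 0) in the 3 NC (blue) and 3 siEIF1 (red) libraries, with the group mean as a line and the SD as a bar. The CDK1, CDK2, CDK4 and CDKN1A points of the siEIF1 group lie below all NC points, the CDKN2B points lie above them, and those of the other 5 genes overlap.

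CDK1, the kinase of mitotic entry, showed the largest difference of the 10 genes. The CDK1 gene (ENSG00000170312.16) lies on the forward strand at chr10:60778331-60794852 (GRCh38, GENCODE release 44), with 8 exons in its canonical transcript. Its FPKM was 3.63, 3.75 and 3.64 in NC replicates 1 to 3 and 1.05, 1.26 and 1.14 in siEIF1 replicates 1 to 3. The groups were far apart, and the highest siEIF1 library was well below the lowest NC library. The counts behind these values were 464, 517 and 487 in NC cells and 158, 182 and 162 in the siEIF1 libraries. The log2 fold change on the counts was -1.66 (standard error 0.093, edgeR adjusted p = 3.00e-07), which leaves the siEIF1 group at 0.317 of the NC level. A test of whether the fold change itself exceeded 2 also passed (edgeR's glmTreat, adjusted p = 0.00135). In bulk RNA, fewer cells in the phase that carries a transcript and less of the transcript per cell cannot be told apart.

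The CDK1 start region carries short elements that are known from promoters of cell-cycle genes, and it is shown because CDK1 is the gene with the largest difference. RefSeq promoters (GRCh38.p14, from 250 bases before to 50 after a start site) were held for 8 of the 10 genes, and those of CDK2 and CDKN1C were not held. On either strand, 4 elements were searched, namely the cell cycle homology region (CHR, TTTGAA), the CCAAT box (CCAAT), the E2F element (TTTCCCGC, TTTGGCGC, TTTGCCGC or TTTCGCGC) and the GC box (GGGCGG). CDK1 has start sites at 60778331 and 60778478, and the window of the latter held 3 CHR matches, 2 CCAAT matches, 1 E2F match and 2 GC boxes. The window of the former held 1 CHR match, 1 CCAAT match, 1 E2F match and 2 GC boxes. Both windows overlap and share the E2F match and the GC boxes. Capitals mark the match in each of the following stretches, read on the strand of the gene.
CDK1 CHR, chr10:60778397-60778426, forward strand: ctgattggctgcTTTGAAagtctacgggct
CDK1 CHR, chr10:60778453-60778482, forward strand: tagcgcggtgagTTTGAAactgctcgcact
CDK1 E2F, chr10:60778339-60778368, forward strand: tttcctctttcTTTCGCGCtctagccaccc

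The first of these stretches also holds the reverse complement of a CCAAT box a few bases upstream of the CHR letters. Of all 35116 RefSeq promoter windows of this length, 15.2% held a CHR match, 34.6% a CCAAT match, 3.3% an E2F match and 45.0% a GC box, and 5.9% held both a CHR and a CCAAT match. Among the windows of the other 7 genes, 0 held a CHR or an E2F match. CDKN1B had 3 CCAAT matches. The start window of CDKN2B, the gene that rose, had 2 GC boxes, as many as either CDK1 window, and no match to the other elements. CDK4, which was lower, likewise had only GC boxes, 3 of them, in its window. Whether the elements go with the direction of change was not tested.
CDKN1B CCAAT, chr12:12717306-12717335, forward strand: ccgccgccgcaaCCAATggatctcctcctc
CDKN2B GC box, chr9:22009366-22009395, reverse strand: acagcggacaggGGGCGGagcctaaggggg

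These matches are a description of the letters in each window, and binding of a factor was not measured.

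CDK2, the partner of cyclins E and A, fell less than CDK1. The CDK2 gene (ENSG00000123374.11) lies on the forward strand at chr12:55966781-55972789. Its FPKM was 4.75, 4.32 and 4.18 in NC cells and 2.89, 2.24 and 2.41 in the siEIF1 libraries. Every siEIF1 library was below every NC library, and siEIF1 replicate 1 stayed closest to the NC group. The log2 fold change of CDK2 was -0.79 (standard error 0.094, edgeR adjusted p = 7.09e-05), a fold of 0.578, which is short of the study's limit. PMEL, a melanosome gene on the opposite strand, shares 89 exonic bases with CDK2 and had 25 to 40 counts in a library, and the noncoding gene ENSG00000258554, also opposite, shares 565 (14.5% of the exonic bases of CDK2) and had 1 to 9 counts.

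CDK1 and CDK2 were also compared within each library, where the scaling of a library cancels. The FPKM ratio of CDK1 to CDK2 was 0.764, 0.868 and 0.871 in the NC libraries and 0.363, 0.562 and 0.473 in the siEIF1 libraries. The groups did not overlap, and the 2-sided exact permutation test gave p = 0.1, which no split of 6 libraries into 3 and 3 can undercut. In all, 21 sums, shares and ratios were tested in this way, and a p of 0.1 became 0.1105 after Benjamini-Hochberg adjustment over them (exact permutation tests).

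CDK4, a partner of D-type cyclins, had the highest FPKM of the 4 kinases. The CDK4 gene (ENSG00000135446.17) lies on the reverse strand at chr12:57747727-57756013. Its FPKM was 71.17, 67.99 and 69.51 in NC cells and 61.14, 59.10 and 58.78 in the siEIF1 libraries. The groups did not overlap, but the difference was small beside those of CDK1 and CDK2. Its log2 fold change was -0.20 (standard error 0.047, edgeR adjusted p = 0.00853), a fold of 0.870. TSPAN31 on the opposite strand shares 1369 exonic bases with CDK4, or 44.2% of the exonic bases of CDK4, and while the libraries were directional, the strand setting of the counting is not given in the sources used here. TSPAN31 did not pass the test (log2 fold change 0.045, standard error 0.058, edgeR adjusted p = 0.644), and it had 1381 to 1692 counts in a library against 6574 to 7374 for CDK4.

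CDK6, the other partner of D-type cyclins, lies on the reverse strand at chr7:92604921-92836573 and did not pass the test. Its FPKM ranged from 6.58 to 7.43 in NC cells and from 6.98 to 7.22 in the siEIF1 libraries, so that all siEIF1 values lay inside the NC range. CDK6 had a log2 fold change of 0.051 with a 95% interval from -0.070 to 0.17 (edgeR adjusted p = 0.580). With 2617 to 3392 counts in a library, a change of CDK6 by the fold seen for CDK2 lies outside this interval.

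**Figure D2:**
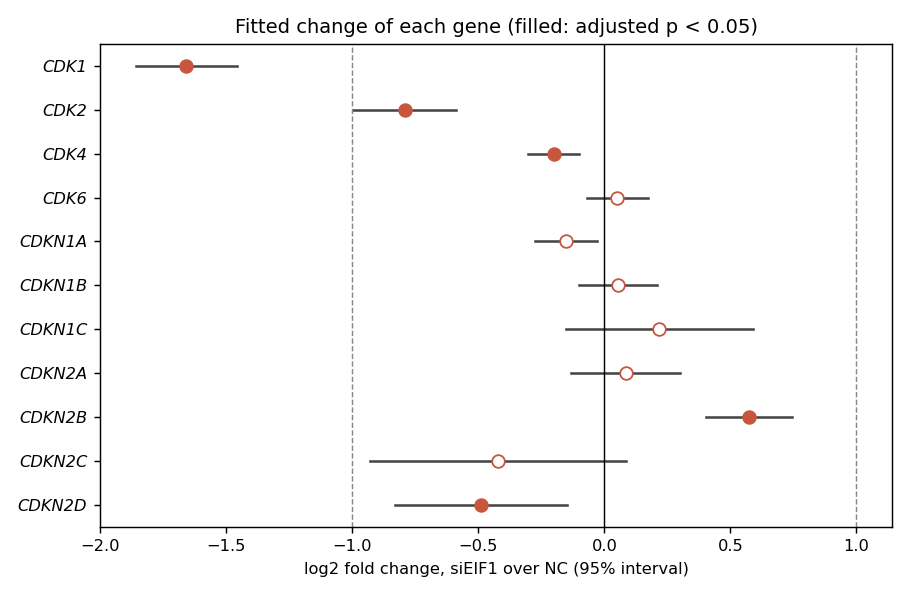
Log2 fold change of the 10 genes and of CDKN2D (horizontal axis, siEIF1 over NC) with 95% intervals from the edgeR fit; filled points have an adjusted p under 0.05 and dashed lines mark a fold change of 2 in either direction. CDK1 alone lies beyond a dashed line, at -1.66, and the intervals are widest for the low-count genes CDKN2C and CDKN1C.

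Together the 4 kinases had a summed FPKM of 84.6 ± 1.38 (SD, n = 3) under control siRNA and of 70.4 ± 1.64 (SD, n = 3) in siEIF1 cells, without overlap (2-sided exact permutation test, p = 0.1, the smallest possible). Most of this sum was CDK4, with 82.2% in NC cells and 84.7% in siEIF1 cells. The share of CDK1 was 4.21%, 4.49% and 4.33% in the NC libraries and 1.45%, 1.81% and 1.64% in the siEIF1 libraries. The share of CDK2 went from a mean of 5.22% ± 0.276 (SD, n = 3) to 3.56% ± 0.398 (SD, n = 3), and that of CDK6 from 8.20% ± 0.640 (SD, n = 3) to 10.1% ± 0.0746 (SD, n = 3). None of these 3 shares overlapped between the groups, and each gave the smallest p of the 2-sided exact permutation test, 0.1. Shares add up to the whole, and the level of CDK6 itself did not pass the test.

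Levels of different genes depend on the length used, and the FPKM use long ones. For the 10 genes and CDKN2D, the length that turns the deposited counts into the deposited FPKM was 1.22 to 1.23 times the merged exons of all transcripts of the gene in GENCODE release 44, and 1.27 to 4.85 times the canonical transcript. This length was worked out with the summed counts of a library as its size. Another library size would scale it alike for all genes, so the factor common to them may not be length. The ratios to the canonical transcript carry that factor too. Per kilobase of the canonical transcript, CDK1, CDK2 and CDK6 lay close together in NC cells, at 9.33, 9.35 and 8.88 CPM per kilobase, and at 2.96, 5.39 and 9.20 in siEIF1 cells. On the FPKM scale, CDK6 was above CDK2 and CDK2 above CDK1 in NC cells, so the order of these 3 kinases rests on the length used. The share of CDK1 in the sum of the 4 kinases was then 5.54% in NC cells and 2.11% in siEIF1 cells. Fold changes of a single gene do not depend on its length.

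CDKN1A (p21), a CIP/KIP inhibitor, had the highest FPKM of the 10 genes. The CDKN1A gene (ENSG00000124762.14) lies on the forward strand at chr6:36676460-36687337. Its FPKM was 235.08, 259.63 and 252.37 in NC cells and 223.09, 225.27 and 213.79 in the siEIF1 libraries. The siEIF1 values were all below the NC values, with NC replicate 1 close to them. For CDKN1A the log2 fold change was -0.15 (standard error 0.057, 95% interval from -0.28 to -0.030, edgeR adjusted p = 0.0747), so it did not pass the test. The call is close to the threshold, since DESeq2 on the same genes gave an adjusted p of 0.0340, and over all alternatives the adjusted p ran from 0.0232 to 0.242 with a negative log2 fold change in each.

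CDKN1B (p27), whose protein is marked for degradation by the SCF-SKP2 ligase, lies on the forward strand at chr12:12685498-12722369 and did not pass the test. Its FPKM ranged from 6.74 to 8.02 in NC cells and from 7.12 to 8.17 in the siEIF1 libraries, with groups that overlapped almost fully. On the log2 scale the fold change was 0.055 (95% interval from -0.099 to 0.21, edgeR adjusted p = 0.647). Beside the fall of CDK2, the FPKM ratio of CDKN1B to CDK2 was 1.42, 1.86 and 1.82 in NC cells and 2.83, 3.40 and 2.95 in the siEIF1 libraries, without overlap (2-sided exact permutation test, p = 0.1, the smallest possible).

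CDKN1C (p57), an imprinted CIP/KIP gene on the reverse strand at chr11:2883213-2885775, was counted thinly, with 62 to 110 counts in a library. Its FPKM ranged from 0.77 to 1.22 in NC cells and from 1.16 to 1.19 in the siEIF1 libraries, and NC replicate 1 was the lowest. With a log2 fold change of 0.22, it had a 95% interval from -0.15 to 0.59 (edgeR adjusted p = 0.419), an interval that includes the value of CDKN2B.

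CDKN2B (p15), an INK4 inhibitor known to be induced by TGF-beta, was the inhibitor that rose. The CDKN2B gene (ENSG00000147883.12) lies on the reverse strand at chr9:22002903-22009305. Its FPKM was 10.18, 8.22 and 10.02 in NC cells and 14.55, 12.34 and 14.83 in the siEIF1 libraries. The groups did not overlap, and the replicate numbered 2 was the lowest of each group. On the log2 scale CDKN2B was higher by 0.57 (standard error 0.078, edgeR adjusted p = 2.09e-04), a fold of 1.49, which is under the study's limit of 2.

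CDKN2A, the neighbor of CDKN2B on the same strand at chr9:21967752-21995301, encodes p16 and, from another first exon, p14ARF, which counts per gene do not separate. Its FPKM ranged from 1.92 to 2.22 in NC cells and from 2.02 to 2.36 in the siEIF1 libraries. CDKN2A did not pass the test, with a log2 fold change of 0.085 and a 95% interval from -0.13 to 0.30 (edgeR adjusted p = 0.610). The intervals of CDKN2A and CDKN2B do not overlap, but the within-library FPKM ratio of CDKN2B to CDKN2A, at 5.30, 3.70 and 4.79 in NC cells and 6.83, 5.23 and 7.34 in the siEIF1 libraries, overlapped between the groups by 1 library (2-sided exact permutation test, p = 0.2).

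CDKN2C (p18), on the forward strand at chr1:50960745-50974634, was the lowest of the 10 genes on the FPKM scale and had 38 to 83 counts in a library. Its FPKM was 0.49, 0.78 and 0.57 in NC cells and 0.44, 0.34 and 0.59 in the siEIF1 libraries, which overlapped. Its log2 fold change of -0.42 had a 95% interval from -0.93 to 0.091 (edgeR adjusted p = 0.241), an interval that includes the value of CDK2. CDKN2D (p19), the remaining INK4 gene and not one of the 10, had an FPKM of 1.73 ± 0.121 (SD, n = 3) under control siRNA and of 1.22 ± 0.102 (SD, n = 3) in siEIF1 cells. Its log2 fold change of -0.49 passed the test (edgeR adjusted p = 0.0441) but not with DESeq2 (adjusted p = 0.0969), nor with any 1 of the 6 libraries left out (edgeR adjusted p from 0.0545 to 0.140).

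Summed over the 7 inhibitors with CDKN2D included, the FPKM was 271.4 ± 12.99 (SD, n = 3) under control siRNA and 247.3 ± 5.59 (SD, n = 3) in siEIF1 cells. The groups did not overlap (2-sided exact permutation test, p = 0.1, the smallest possible), but on the CPM scale they did, with p = 0.3. This sum is nearly all CDKN1A, which held 91.7% of it in NC cells and 89.3% in siEIF1 cells. Without CDKN1A, the remaining 6 inhibitors summed to 21.82, 22.32 and 22.99 in NC cells and to 27.71, 24.94 and 27.04 in the siEIF1 libraries, the opposite direction. CDKN2B carried this difference, since the other 5 summed to 11.64, 14.10 and 12.97 in NC and to 13.16, 12.60 and 12.21 in siEIF1 libraries, which overlapped. The share of CDKN2B in the FPKM of the 7 inhibitors was 3.96%, 2.92% and 3.64% in NC cells and 5.80%, 4.93% and 6.16% in the siEIF1 libraries. Within the 4 INK4 genes, CDKN2B held a mean of 68.0% in NC cells and of 78.3% in siEIF1 cells, again without overlap (2-sided exact permutation test, p = 0.1, the smallest possible). Per kilobase of the canonical transcript, this share had a mean of 45.2% in NC cells and of 56.0% in siEIF1 cells. Its size thus rests on the length used.

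**Figure D3:**
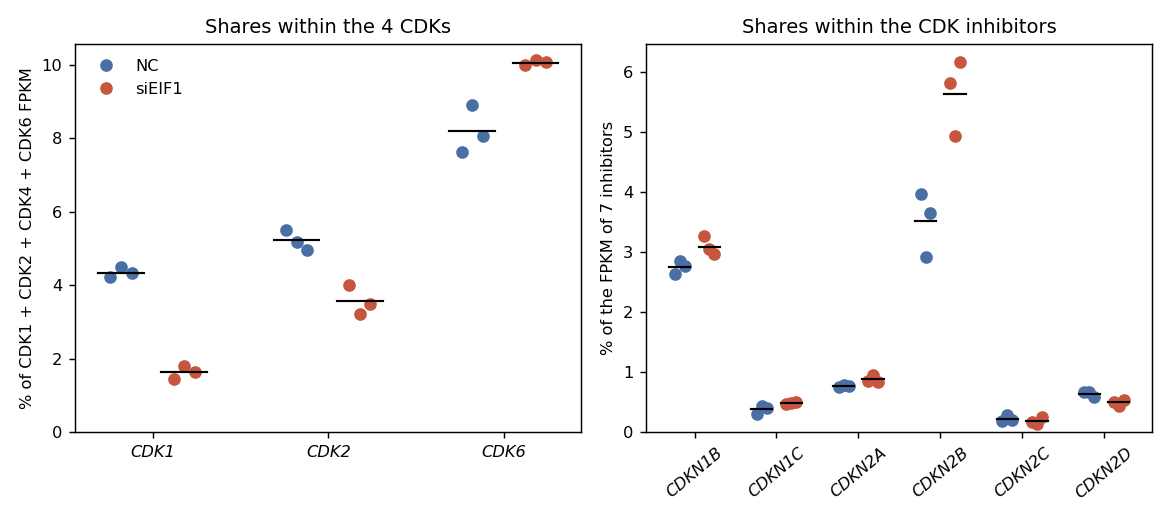
Left, share of CDK1, CDK2 and CDK6 in the summed FPKM of the 4 kinases, in percent (CDK4 holds the rest); right, share of 6 inhibitors in the summed FPKM of the 7 inhibitors, in percent (CDKN1A holds the rest). Points are the 3 NC (blue) and 3 siEIF1 (red) libraries and lines are group means; the mean share of CDK1 is 4.34% in NC and 1.64% in siEIF1 libraries, and that of CDKN2B is 3.51% and 5.63%.

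In the order of FPKM levels, CDKN1A, CDK4 and CDKN2B were the highest of the 10 genes in both groups, and no library of one of these reached the range of the next. Per kilobase of the canonical transcript, however, CDKN1B lay above CDKN2B, in both groups, at 36.3 against 17.8 CPM per kilobase in siEIF1 cells, and CDKN2A lay above CDK1, CDK2 and CDK6 in NC cells, at a mean of 10.05 against 9.33, 9.35 and 8.88, with ranges that overlapped those of CDK1, CDK2 and CDK6. On the FPKM scale, CDKN1B and CDK6 followed CDKN2B in both groups, and their own ranges overlapped. CDK1 ranked 7 by FPKM in NC cells, above CDKN2A, and 9 in siEIF1 cells, where its range of 1.05 to 1.26 overlapped that of CDKN1C. In FPKM, CDK2 lay clear of its neighbors in NC cells, whereas in siEIF1 cells its range overlapped that of CDKN2A.

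Most transcripts for the proteins that pair with these kinases or switch them on and off were lower in siEIF1 cells. Of a list of 20 cyclins, CDK-activating kinase subunits, CDC25 phosphatases, inhibitory kinases, CKS proteins and cofactors, 19 were tested and CCND2 was too low. In this list 14 genes were lower, 0 were higher and 5 did not pass (edgeR adjusted p under 0.05). Thus 73.7% were lower, beside 10.4% of all tested genes. Of the 14, 7 were past the study's limit, beside 1.31% of all tested genes that were lower and past it. Only CCNE2 of this list passed the test of whether the fold change itself exceeded 2 (edgeR's glmTreat, adjusted p = 0.0429). CCND1 and CDC25C did not pass it (edgeR's glmTreat, adjusted p = 0.715 and 0.29). At an unadjusted p under 0.05, 15 were lower and 0 higher (edgeR), and DESeq2 and limma each called 14 lower and 0 higher. For these other rules the share of all tested genes was not worked out. The list's median log2 fold change was -0.64. CCND1, the D-type cyclin with the highest level here and a partner of CDK4 and CDK6, had an FPKM of 193.44, 175.50 and 192.24 in NC cells and of 75.89, 72.63 and 95.61 in the siEIF1 libraries (log2 fold change -1.18, standard error 0.079, edgeR adjusted p = 6.61e-07). CKS1B, a small subunit that binds CDKs and serves SKP2, fell by 1.04 on the log2 scale (edgeR adjusted p = 5.00e-07), and CCNB1, a mitotic partner of CDK1, fell by 1.01 (edgeR adjusted p = 2.90e-06).

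Among the partners of CDK2, CCNE2 fell by 1.82 on the log2 scale, CCNA2 by 0.94 and CCNE1 by 0.82. Of the genes that set the phosphorylation of CDK1, both activating phosphatases CDC25B and CDC25C were lower (log2 fold changes -0.58 and -1.73), and so was the inhibitory kinase PKMYT1 (-1.23). CDC25A and WEE1, an activating phosphatase and an inhibitory kinase, did not pass the test (edgeR adjusted p = 0.155 and 0.0831), although WEE1 passed without NC replicate 1 (edgeR adjusted p = 0.0372). Of the CDK-activating kinase, CCNH was slightly lower (log2 fold change -0.15, edgeR adjusted p = 0.0284, and 0.0545 to 0.102 without any 1 library other than siEIF1 replicate 3), while CDK7 and MNAT1 did not pass. The other lower genes of this list were CCNB2, CCND3, CKS2 and CDC20.

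The targets of the CDK4 and CDK6 kinases, the RB family, and the ligase that removes CDKN1B formed a list of 8 genes, of which 3 were lower (37.5%, beside 10.4% of all tested genes), 0 higher and 5 did not pass. At an unadjusted p under 0.05, 1 gene (RBL2) had a positive log2 fold change (edgeR). DESeq2 called 2 lower and 0 higher and limma 3 lower and 0 higher. Shares of all tested genes by these rules were not worked out. RBL1 (p107) had an FPKM of 1.35 ± 0.0529 (SD, n = 3) under control siRNA and of 0.930 ± 0.0265 (SD, n = 3) in siEIF1 cells (log2 fold change -0.51, edgeR adjusted p = 0.00164). RB1 itself was lower by a log2 fold change of -0.17 (edgeR adjusted p = 0.0315), but DESeq2 gave an adjusted p of 0.0534 and edgeR gave 0.0547 to 0.108 without any 1 library other than NC replicate 1. CKS1B, which is also in the partner list, was the remaining lower gene, and SKP2, SKP1, CUL1, RBX1 and RBL2 did not pass. The median log2 fold change of this list was -0.044.

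Among the tested CDKs outside the cell-cycle core, some were called higher and none was called lower. Of 17 such genes, with CDK7 again among them, CDK3 and CDK15 were too low to be tested, and of the other 15, 4 were higher (26.7%, beside 10.2% of all tested genes), 0 were lower and 11 did not pass. At an unadjusted p under 0.05, 6 were higher and 1 was lower, CDK17 (log2 fold change -0.19, edgeR adjusted p = 0.0744). DESeq2 called 4 higher and 0 lower and limma 3 higher and 0 lower. These counts cannot be read against all tested genes, whose shares by these rules were not worked out. CDK14, a kinase that pairs with cyclin Y in Wnt signaling, had the largest difference, with FPKM of 1.05, 0.88 and 0.97 in NC cells and of 1.59, 1.85 and 2.09 in the siEIF1 libraries (log2 fold change 0.95, standard error 0.11, edgeR adjusted p = 4.00e-05). CDK16 was higher by a log2 fold change of 0.39 (edgeR adjusted p = 6.79e-05) and the transcription elongation kinase CDK9 by 0.22 (edgeR adjusted p = 0.00944). CDK19, a Mediator kinase, passed at an adjusted p of 0.0297 (edgeR), which was 0.131 with limma on log2(FPKM + 1) and 0.0749 to 0.118 with edgeR without NC replicate 1, NC replicate 2, siEIF1 replicate 1 or siEIF1 replicate 2. CDK11A and CDK11B are near-identical copies, and their counts are uncertain.

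**Figure D4:**
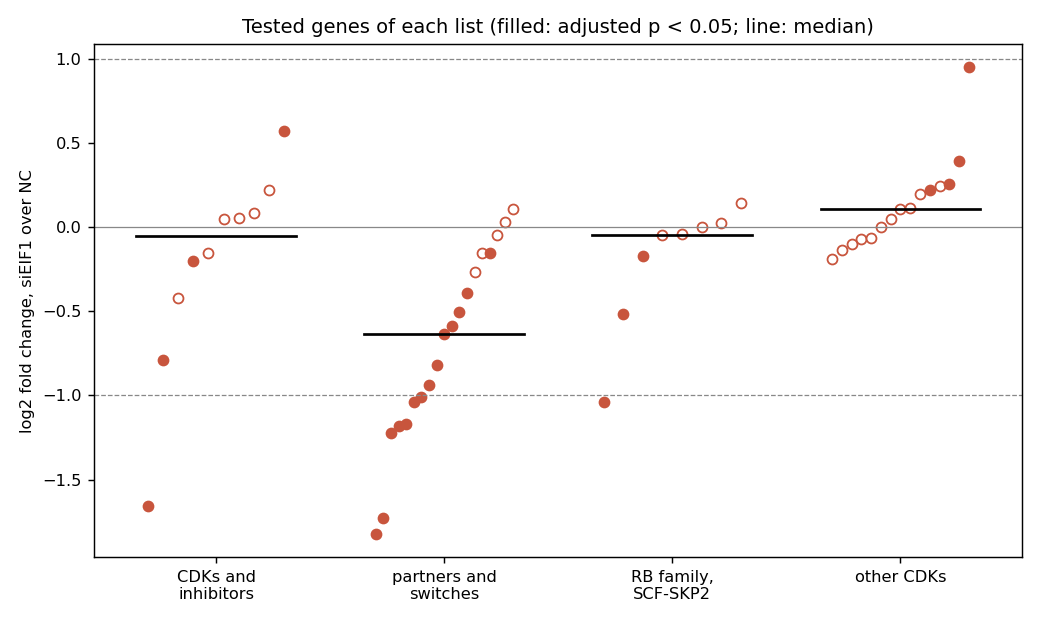
Log2 fold change (vertical axis, siEIF1 over NC) of each tested gene in the 10 CDKs and inhibitors and in 3 lists of related genes; filled points have an edgeR adjusted p under 0.05, lines are medians and dashed lines mark a fold change of 2. The partner list is shifted downward, with a median of -0.64, while the medians of the other lists lie between -0.051 and 0.11.

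Over the 6 libraries, the genes whose centered log2 CPM lay nearest to those of CDK1, among 13382 genes with a mean count of at least 50, were DEPDC1, EXO1 and ASF1B, at Euclidean distances of 0.202, 0.220 and 0.235. For CDKN2B, the inhibitor with the smallest p, they were DCBLD2, G3BP2 and LTBP2, at 0.122, 0.165 and 0.182. These distances are a description of 6 libraries in 2 groups.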

How the data were processed

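RNA-seq libraries of 3 NC and 3 siEIF1 samples were grouped by their sample titles. The authors trimmed reads with FASTX-Toolkit, aligned them to GRCh38 with HISAT2 and kept reads that mapped uniquely. They deposited raw counts per gene, not normalized, and FPKM values with 2 decimals. The counting program, its strand setting and the annotation release are not given in the sources used here. The methods describe 3 independent biological replicates per group, prepared in parallel and sequenced in a single run.

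All genes were fitted with edgeR 4.0.16 in R 4.3.3 (filterByExpr, TMM factors from 0.981 to 1.02, quasi-likelihood test, Benjamini-Hochberg adjustment), and 16749 genes were tested. Standard errors were derived from the F statistic. Passing the test means an adjusted p under 0.05. Sums, shares and ratios of FPKM were compared by exact permutation over the libraries. The counts set the precision, with wider intervals for genes of fewer counts. Replicates differed by more than counting noise (chi-square over its degrees of freedom, 3.00 to 14.1), so each library was counted as 1 replicate.

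Alternatives were RLE and upper-quartile normalization, no filter or 10 counts in every library, DESeq2 1.42.0, limma 3.58.1 on log2(FPKM + 1) and log2(FPKM + 0.1), a replicate block, glmTreat and leaving out each library. Fits were tested on simulated data. Positions came from GENCODE release 44 and promoters from RefSeq. The genes and lists were chosen with earlier results of these data known. Named are the 10 genes, CDKN2D, EIF1, list members (values for those with the smallest p, and others where few were called), the 3 nearest genes of 1 CDK and 1 inhibitor, and genes that overlap a member. Values of further list members (such as the other cyclins, the CDC25 phosphatases, WEE1 and CDK17) were chosen after they were seen. A further gene and its list were fitted and are not reported here.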

Additional observations from a re-analysis of the deposited data

How the results depend on the processing

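The number of the 10 genes with an adjusted p under 0.05 was 4 or 5 under every alternative run, with CDKN2B higher and the others lower, and the number past the study's limit was 1 throughout. It was 5 with no count filter, with DESeq2, with limma on either FPKM scale and with the replicate block, and the added gene was CDKN1A each time. Of the single-gene results under alternatives, 135 for the 10 genes kept their side of the threshold and the remaining 5 were these calls of CDKN1A. With 1 library left out, the log2 fold change ran from -1.75 to -1.59 for CDK1, from -0.91 to -0.73 for CDK2, from -0.22 to -0.17 for CDK4 and from 0.48 to 0.64 for CDKN2B, each with an edgeR adjusted p of at most 0.0339. On log2(FPKM + 1), which understates low genes, CDK1 stood at -1.12 (limma). The groups share replicate numbers, and samples with the same number correlated at 0.149, 0.0946 and 0.128 in their deviations from the group means. Each sample correlated best with its own number. With 3 libraries per group few matchings are possible, and the design states no pairing, so these values do not show a pairing. In the fit with the replicate block, CDKN1A had a log2 fold change of -0.15 and an adjusted p of 0.0232 (edgeR). In that fit 14 partner, 6 other CDK and 3 RB list genes passed, against 14, 4 and 3 without the block. With 1 library left out, these lists had 13 to 14, 3 to 4 and 2 to 3 genes. Shares of all tested genes were not worked out for the alternatives. The CDK1 share of the summed FPKM of 4 CDKs differed by -2.80 to -2.62 percentage points with 1 library left out, and by -3.43 per kilobase of the canonical transcript, a setting chosen after seeing the data. With 1 library left out, the summed FPKM of 7 CDK inhibitors differed by -31.4 to -18.9, the latter without NC replicate 2. CDKN1C and CDKN2C, with 38 to 110 counts in a library, had the widest intervals of the 10 genes.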

Other observations

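CDKN2A and CDKN2B lie side by side on chromosome 9 with the antisense noncoding gene CDKN2B-AS1, which shares 593 exonic bases with CDKN2A on the opposite strand. CDKN2B-AS1 had 51, 76 and 65 counts in the NC and 69, 81 and 68 in the siEIF1 libraries, and its log2 fold change of 0.076 (95% interval from -0.33 to 0.48, edgeR adjusted p = 0.822) did not pass the test. Of these 3 neighboring genes, CDKN2B was thus the only one that passed. The within-library ratio to CDKN2A cannot decide whether CDKN2B differs from CDKN2A in this, since the exact permutation test cannot give a p under 0.1. A ratio to CDKN2B-AS1 was not formed.

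The summed FPKM of the 7 inhibitors divided by that of the 4 kinases was 2.98, 3.38 and 3.27 in the NC and 3.47, 3.59 and 3.47 in the siEIF1 libraries, without overlap (2-sided exact permutation test, p = 0.1, the smallest possible). On the FPKM scale both sums were lower in the siEIF1 group. The inhibitor sum, nearly all CDKN1A, overlapped between the groups on the CPM scale and per kilobase of the canonical transcript. The ratio of CDK6 to CDK4 FPKM was 0.0925, 0.109 and 0.0977 in the NC and 0.118, 0.119 and 0.119 in the siEIF1 libraries.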
